A study of Mus musculus with 12 samples.

Results

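The genes described here encode Adam17, a membrane protease, the receptors Egfr, Erbb2 and Erbb3, and the ligands Nrg1, Areg, Ereg, Hbegf, Tgfa and Btc. These 10 genes were chosen by name for their place in a single signalling route, and every probe carrying such a symbol was read singly. A gene's value is the mean of its probes measured in every tumour, or otherwise its most widely measured probe. Of the 16896 genes named on the array, 9 belong to this set, since Areg, the gene of amphiregulin, matched no probe, so its expression is not analysed here. A value on at least 1 array was present for 8 of the 10, and 7 could be compared between the groups, through 11 of their 13 probes.

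Adam17 cuts proteins off the cell surface. Most ErbB ligands are made as membrane-anchored precursors, and cutting sets the soluble growth factor free to bind an ErbB receptor on the same or a neighbouring cell. The bound receptors pair up, phosphorylate each other and, through adaptors such as Shc1 and Grb2 and the exchange factor Sos, switch on Ras. In the epidermis, Egfr signalling supports the growth and survival of basal keratinocytes and the cycling of hair follicles, while Erbb2 has no ligand of its own and acts as a partner of the other receptors. Fos, which pairs with Jun proteins, is part of AP-1, a transcription factor.

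Tumour RNA came from papillomas of mouse tail skin, 1 papilloma from each of 6 mice. All 6 carried a transgene for an active Sos driven by the keratin 5 promoter, which works in basal keratinocytes, so Ras was switched on downstream of the receptors in both groups. In 3 mice (Fos-deficient, specimens 6, 8 and 9) both Fos alleles were deleted in the epidermis. In the other 3 (Fos-floxed, specimens 2, 3 and 5) both alleles carried loxP sites and remained active. The genetic background was a mixture of 129/Ola, C57BL/6, CBA, LVA and also B6C3F1 in both groups. The sources used here do not give the Cre line, the age or the sex of the mice. Each RNA was hybridised on 2 arrays, with exchanged dyes, against Universal Mouse Reference RNA, a commercial pool from several cell lines. The mean of both arrays is the specimen's value, a log ratio over the reference, taken as log2, and a difference is the mean of the Fos-deficient specimens minus that of the Fos-floxed specimens. The comparison asks how the transcripts of the Adam17 and ErbB route depended on epidermal Fos in these tumours.

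Fos itself was measured first as a check of the labels. It stood at -1.30, -0.56 and -1.56 in Fos-floxed papillomas 2, 3 and 5, and -4.01, -4.43 and -3.91 in Fos-deficient papillomas 6, 8 and 9. The groups lay far apart, by -2.98 (SE 0.29), or 7.86-fold lower if the logarithm is base 2, yet even this difference had an adjusted p of 0.183 in limma, the smallest of all. Of 18861 features (12006 named genes, each 1 value, and 6855 unnamed probes), 0 passed an adjusted p of 0.05, which is 0.0%, and of 21071 single probes likewise 0.0% passed. At an unadjusted p under 0.05 limma counted 2238 features and 2487 probes. With 3 specimens a group, the exact permutation test cannot go below p = 0.1. No member can therefore be called changed, and the values that follow are differences with their errors, with unadjusted p-values given as a description.

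The papillomas carried the markers of their labelled tissue. The mean over 9 keratinocyte genes, among them those of the basal and upper epidermis, lay between 4.34 and 4.41 in the Fos-floxed and between 4.12 and 4.28 in the Fos-deficient specimens. These means did not overlap, with the Fos-deficient specimens lower, although 5 of the 9 genes had a difference below 0 and 4 above 0. Markers of skin appendages also differed between the groups. The mean of 3 measured hair follicle genes of 8 listed lay between 0.56 and 0.86 in the Fos-floxed and between 1.68 and 3.45 in the Fos-deficient papillomas. For 5 measured sebaceous gland genes of 7 it lay between -0.54 and -0.41 in the Fos-floxed and between 0.30 and 0.72 in the Fos-deficient papillomas. Of 6 tested sebaceous genes, 4 had a difference above 0 and 2 below 0, while all 4 tested hair follicle genes were above 0. Melanocyte, Schwann cell and skeletal muscle lists were also higher in all Fos-deficient specimens, with smaller gaps. Lists for fibroblasts, endothelial cells, macrophages, T cells and mast cells overlapped between the groups. In such whole-tissue RNA, fewer cells of a type and less RNA per cell cannot be told apart, and the part of tissue composition in the member results was not tested.

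Among the 7 members tested, 5 were lower in the mean of the Fos-deficient papillomas. The differences were -1.05 for Nrg1 (by probe 102013), -0.96 for Hbegf, -0.75 for Adam17, -0.31 for Egfr and -0.25 for Ereg. Btc was at 0.07 and Erbb2 at 0.22. An unadjusted p under 0.05, lower in Fos-deficient, was found for 3 of the 7 (Nrg1, Hbegf and Egfr), and 7.31% of all features were lower by that measure. The count in the higher direction was 0 of 7, against 4.55% of all features. Of the 4 members measured in all 6 specimens, 2 (Egfr and Hbegf) had groups that did not overlap, lower in Fos-deficient, as had 9.09% of the 16209 features measured that completely. By single probes, 3 of 11 had an unadjusted p under 0.05 in the lower direction, against 7.32% of all probes. They were those of Nrg1 and Hbegf, and no single Egfr probe reached that measure. Of 6 completely measured probes, 2 did not overlap, against 9.09% of 17876. The members were chosen with earlier results of these data known, so these counts describe them and support nothing further.

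**Figure D1:**
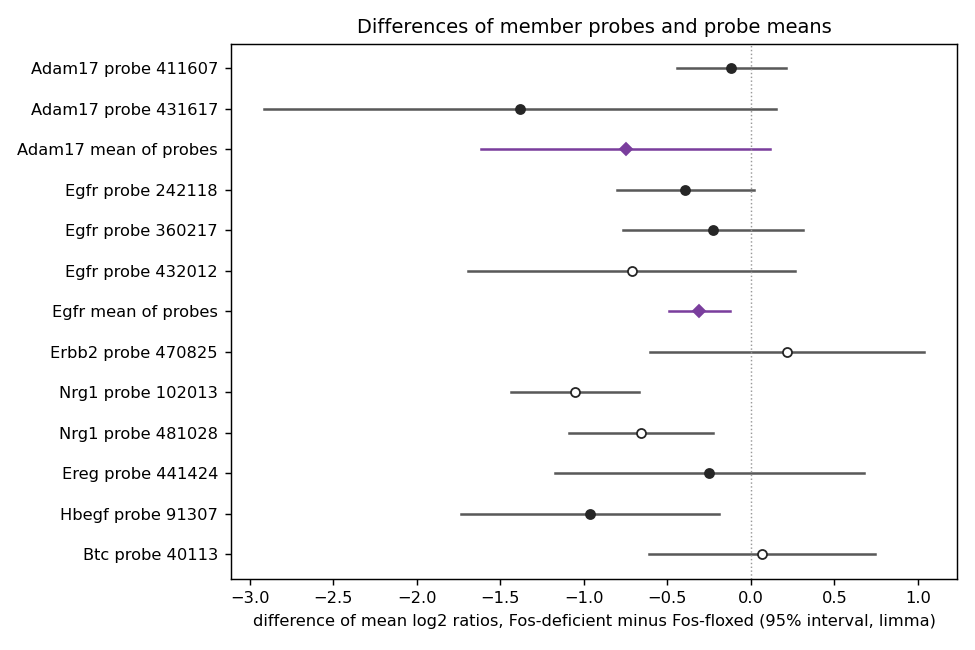
Difference of mean log2 ratios, Fos-deficient minus Fos-floxed (horizontal axis, log2 units), for each tested member probe (circles, open where fewer than 6 specimens had a value) and for the averaged probes of Adam17 and Egfr (purple diamonds), with the 95% interval from limma. Both Nrg1 probes, the Hbegf probe and the Egfr mean have intervals below 0, the Adam17 probes stand at -0.12 and -1.38, and Erbb2, Ereg and Btc lie across 0.

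Adam17, on chromosome 12, was measured by a pair of probes on all 12 arrays, and they gave different pictures. Probe 431617 read 0.06, 0.07 and -0.44 in Fos-floxed papillomas 2, 3 and 5. It read -0.09, -1.98 and -2.38 in Fos-deficient papillomas 6, 8 and 9. Specimens 8 and 9 were thus far below all others, while Fos-deficient specimen 6 lay within the range of the Fos-floxed papillomas. Both dye orientations showed this, since the 6 Fos-floxed arrays spanned -0.55 to 0.38 and the 6 Fos-deficient arrays -2.55 to 0.04. The difference was -1.38 (SE 0.62, 95% interval -2.92 to 0.15), with a limma adjusted p of 0.466 and an exact two-sided permutation p of 0.2. It rested unevenly on the specimens, with -2.08 without specimen 6 and -0.93 without specimen 9.

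The other Adam17 probe, 411607, did not share that gap. It read -0.17, -0.25 and -0.52 in Fos-floxed papillomas 2, 3 and 5, and -0.35, -0.34 and -0.60 in Fos-deficient papillomas 6, 8 and 9. All 6 values overlapped, and the difference was -0.12 (SE 0.13, 95% interval -0.44 to 0.21, limma adjusted p of 0.734, exact permutation p of 0.5). Its interval leaves out the -1.38 of probe 431617, while the wider interval of that probe, -2.92 to 0.15, holds -0.12. The difference between the probes was not tested. With the papilloma in Cy3 alone the sign of probe 411607 turned, to 0.079, and leaving out 1 specimen moved it between -0.22 and -0.03. Where each probe lies in the transcript is not given in the sources used here. The mean of both probes was -0.05, -0.09 and -0.48 in the Fos-floxed group and -0.22, -1.16 and -1.49 in the Fos-deficient group, in the same order, and differed by -0.75 (SE 0.35, 95% interval -1.61 to 0.12, limma adjusted p of 0.479, exact permutation p of 0.2), and by -0.48 without specimen 9.

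**Figure D2:**
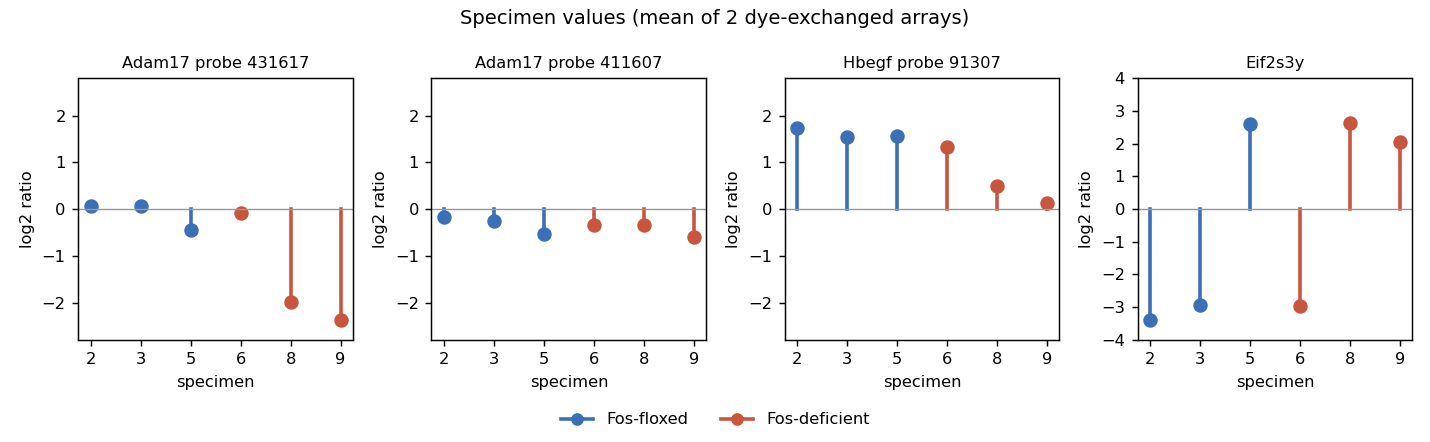
Specimen values (log2 ratio over reference RNA, vertical axis, each the mean of 2 arrays) of Adam17 probes 431617 and 411607, Hbegf and the Y-linked gene Eif2s3y, by specimen number, with Fos-floxed in blue and Fos-deficient in red. Adam17 probe 431617 is at -1.98 and -2.38 in specimens 8 and 9 and near 0 in specimen 6, and Eif2s3y is high in specimens 5, 8 and 9.

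The lower readings of probe 431617 fell in the specimens with high Y-linked transcripts, though not in the order of their level. The Y-linked gene Eif2s3y read -3.39, -2.92 and 2.61 in specimens 2, 3 and 5 and -2.97, 2.64 and 2.04 in specimens 6, 8 and 9, and Kdm5d, also Y-linked, was likewise high in specimens 5, 8 and 9. Those are the specimens in which probe 431617 was lowest. Within the specimens with high Eif2s3y, the probe stood at -0.44 in the Fos-floxed and at -1.98 and -2.38 in the Fos-deficient papillomas. Within the others it stood at 0.06 and 0.07 against -0.09. The part of sex in the Adam17 values was not tested.

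Since Fos acts through AP-1, the DNA around the transcription start was searched for its motifs. RefSeq promoters (GRCm38.p6, 250 bases before to 50 after the start) were held for 6 members, namely Adam17, Egfr, Erbb2, Areg, Tgfa and Btc. None was held for Nrg1, Hbegf, Ereg and Erbb3. The search thus leaves out Nrg1 and Hbegf, the members with the largest differences, and takes in Areg and Tgfa, which were not tested. The AP-1 motif TGANTCA, searched on both strands with N for any base, was in 0 of the 6, and in 7.81% of 32851 mouse promoters of that length. The related TGACGTCA was in 1 of them, that of Areg, and in 1.79% of all. The GC box GGGCGG, on either strand and overlapping neither of the other motifs in these windows, was in 4 of them (Adam17, Egfr, Areg and Tgfa) and in 35.7% of all. A missing match says only that these letters are not in this window. The window of Adam17 is shown because its probes disagree and that of Egfr because its mean had the smallest error, with the GC box in capitals. Both are written 5′ to 3′ in the direction of the gene, Adam17 at chr12:21373583-21373882 on the minus strand and Egfr at chr11:16751953-16752252 on the plus strand.
Adam17: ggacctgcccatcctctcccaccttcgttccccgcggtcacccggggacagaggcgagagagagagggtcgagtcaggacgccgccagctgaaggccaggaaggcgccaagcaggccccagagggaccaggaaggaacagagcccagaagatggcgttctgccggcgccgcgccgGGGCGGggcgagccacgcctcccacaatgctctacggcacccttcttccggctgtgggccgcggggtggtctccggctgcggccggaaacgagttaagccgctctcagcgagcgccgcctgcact
Egfr: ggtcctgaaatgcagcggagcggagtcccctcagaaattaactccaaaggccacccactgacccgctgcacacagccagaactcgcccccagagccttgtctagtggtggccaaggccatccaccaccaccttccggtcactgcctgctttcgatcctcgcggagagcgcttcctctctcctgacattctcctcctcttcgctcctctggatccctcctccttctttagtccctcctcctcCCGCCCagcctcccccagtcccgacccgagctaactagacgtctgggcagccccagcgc

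Of the receptors, Egfr, the EGF receptor on chromosome 11, was slightly but evenly lower in the Fos-deficient papillomas. The mean of its completely measured probes was 0.79, 0.71 and 0.80 in Fos-floxed papillomas 2, 3 and 5, and 0.39, 0.52 and 0.46 in Fos-deficient papillomas 6, 8 and 9. The groups did not overlap, and the spread within each was small, with an SD of 0.05 for Fos-floxed and 0.06 for Fos-deficient. The difference of -0.31 (SE 0.07, 95% interval -0.49 to -0.13) is 1.24-fold in base 2. It had an unadjusted p of 0.00634 and an adjusted p of 0.242 in limma, and an exact permutation p of 0.1, the smallest possible.

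The evenness of Egfr came from averaging probes that ranked the specimens differently. Probe 242118 read 0.60, 0.53 and 0.68 in Fos-floxed papillomas 2, 3 and 5, and 0.44, -0.14 and 0.33 in Fos-deficient papillomas 6, 8 and 9, with specimen 8 lowest. Probe 360217 read 0.98, 0.89 and 0.92, then 0.35, 1.17 and 0.59 in the same order, with specimen 8 highest. The differences were -0.39 (SE 0.17) for 242118, whose groups did not overlap, and -0.23 (SE 0.22) for 360217, whose groups did. Each leaned on single specimens, since probe 242118 gave -0.22 without specimen 8, and probe 360217 gave -0.05 without specimen 6 and -0.46 without specimen 8. The remaining Egfr probe, 432012, read -0.43, 0.06 and -0.64 in the Fos-floxed papillomas, and -0.57 and -1.54 in Fos-deficient papillomas 6 and 8. Specimen 9 lacked 1 of its arrays there, and the difference of -0.71 (SE 0.37, 95% interval -1.69 to 0.26) rests on 3 against 2 specimens, with overlapping groups. No single Egfr probe had an unadjusted p under 0.05 in limma (0.0583 for 242118, 0.335 for 360217 and 0.117 for 432012).

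Erbb2, the partner receptor, also on chromosome 11, showed no separation. Its probe read -1.17, -0.57 and -1.21 in Fos-floxed papillomas 2, 3 and 5, and -1.12 and -0.41 in Fos-deficient papillomas 6 and 9. The difference was 0.22 (SE 0.31, 95% interval -0.61 to 1.04, limma adjusted p of 0.791 for the probe). For this probe the dyes differed more than the groups. The value with the papilloma in Cy5 was lower than with the papilloma in Cy3 by a mean of -1.40 (SD 0.45) over 5 pairs of arrays, and the difference between the groups was -0.11 in Cy5 alone and 0.52 in Cy3 alone. It was 0.42 without specimen 3 and 0.10 without specimen 5. Specimen 8, which lacked its Cy3 value and so gave no specimen value, stood at -1.69 in Cy5. Taking such single arrays in turned the difference to -0.093. Erbb3, a receptor with a weak kinase that binds neuregulins, had 1 probe, which held no value on any array.

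**Figure D3:**
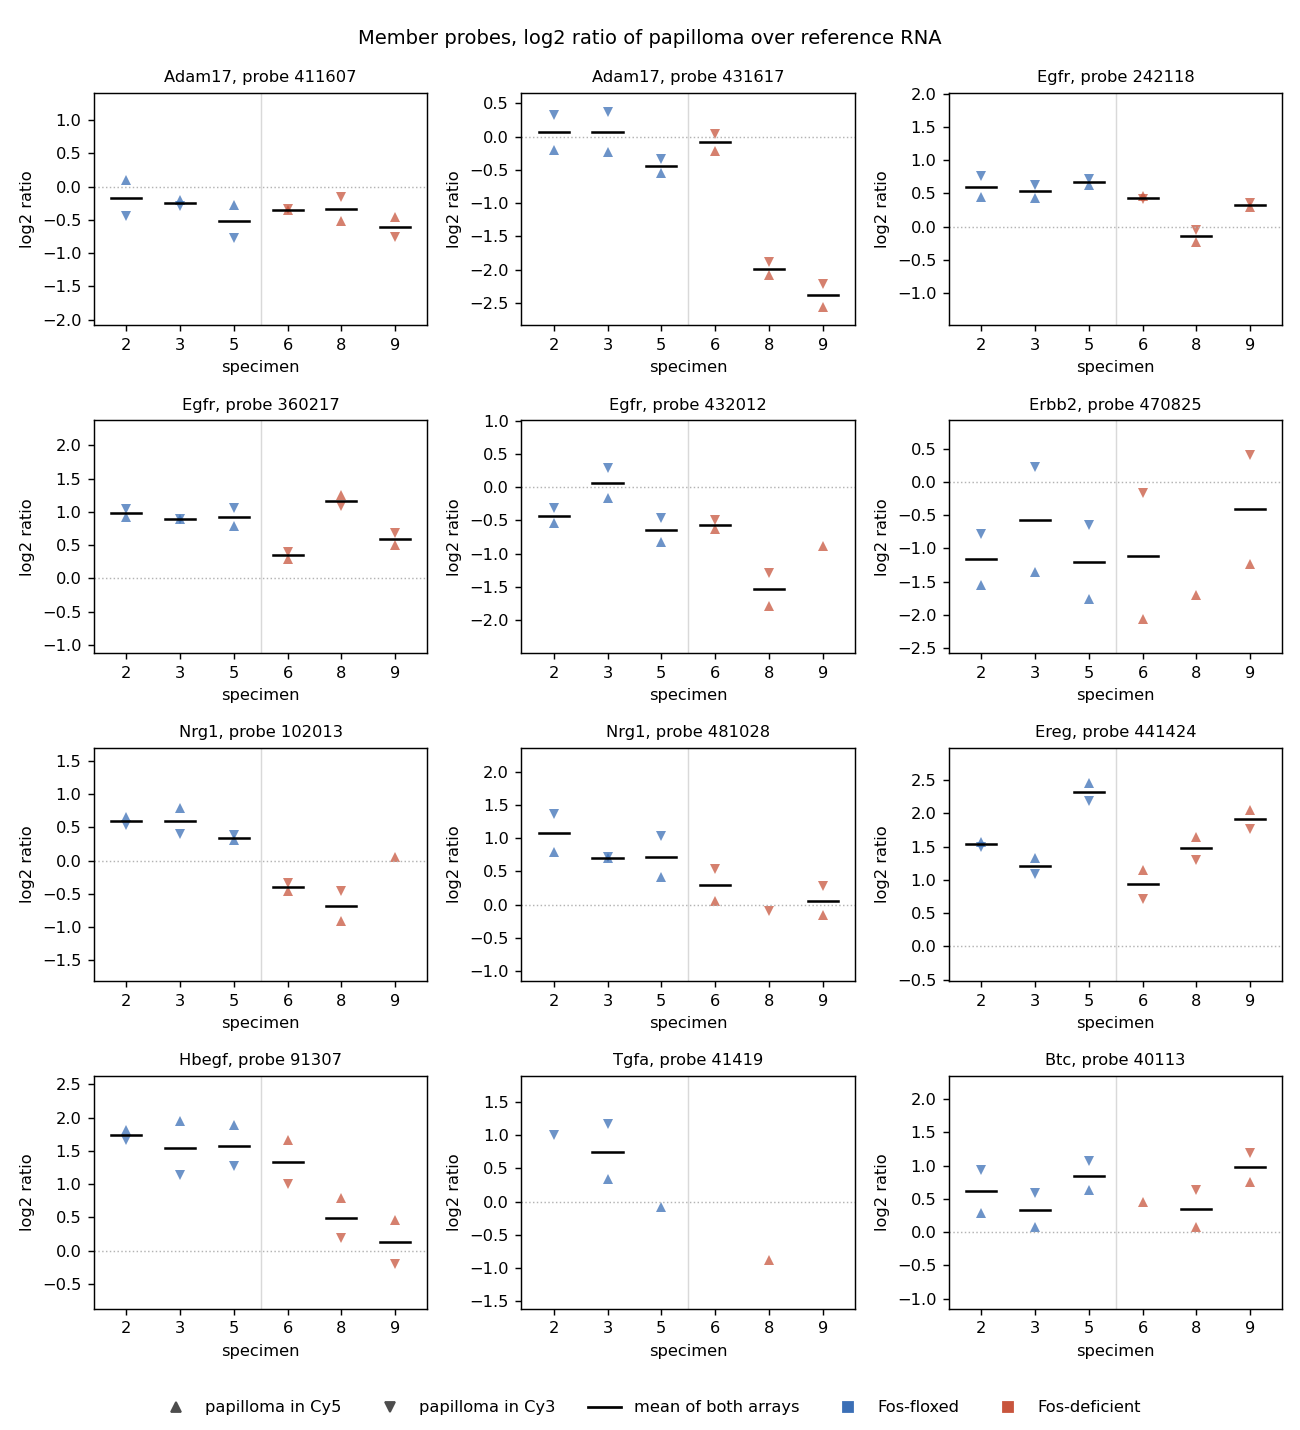
Log2 ratio of papilloma over reference RNA (vertical axis, a scale of equal span but different range in each panel) for every member probe with a value, by specimen number, with the papilloma in Cy5 (upward triangles) or Cy3 (downward triangles), and the mean of both arrays as a black bar. Nrg1 probe 102013 separates the groups on every array, while Erbb2 differs more between the dyes than between the groups.

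Nrg1, the neuregulin gene on chromosome 8, whose products bind Erbb3 and Erbb4, was lower in the Fos-deficient papillomas by both of its probes. Probe 102013 read 0.60, 0.60 and 0.34 in Fos-floxed papillomas 2, 3 and 5, and -0.40 and -0.68 in Fos-deficient papillomas 6 and 8. Specimen 9 had a Cy5 value alone, of 0.06, and was not in the fit. No array of one group reached those of the other, with 6 Fos-floxed arrays between 0.31 and 0.79 and 5 Fos-deficient arrays between -0.91 and 0.06. The difference of -1.05 (SE 0.15, 95% interval -1.43 to -0.67), 2.07-fold in base 2, had an unadjusted p of 0.00107 and an adjusted p of 0.207 in limma. 

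Nrg1 probe 481028 pointed the same way. It read 1.08, 0.71 and 0.72 in Fos-floxed papillomas 2, 3 and 5, and 0.30 and 0.06 in Fos-deficient papillomas 6 and 9. Specimen 8 lacked 1 array. The specimens did not overlap, although the arrays did, with 0.42 to 1.37 in Fos-floxed and -0.16 to 0.54 in Fos-deficient. The difference was -0.66 (SE 0.16, 95% interval -1.09 to -0.22, limma unadjusted p of 0.0121 and adjusted p of 0.285). Each Nrg1 probe thus lacked a different Fos-deficient specimen, and neither of these differences rests on all 3. On single arrays all 3 had a value, for probe 102013 in Cy5 and for probe 481028 in Cy3. The difference was -1.02 (SE 0.28) for probe 102013 in Cy5 alone and -0.79 (SE 0.23) for probe 481028 in Cy3 alone. Both errors are larger than those of the differences above. With single arrays taken in as specimen values, probe 102013 was at -0.85 (SE 0.21) and probe 481028 at -0.75 (SE 0.16).

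Hbegf, heparin-binding EGF-like growth factor and an Adam17 substrate, was lower in every Fos-deficient papilloma, by very different amounts. It read 1.73, 1.54 and 1.58 in Fos-floxed papillomas 2, 3 and 5. The values were 1.33, 0.49 and 0.14 in Fos-deficient papillomas 6, 8 and 9. Specimen 6 lay just under the Fos-floxed range, and specimens 8 and 9 well below it, the same pair that was lowest in Adam17 probe 431617. Fos-floxed specimen 5, which shared high Y-linked transcripts with 8 and 9, read 1.58, between the other Fos-floxed values. The difference was -0.96 (SE 0.31, 95% interval -1.73 to -0.19), or 1.95-fold in base 2, with a limma adjusted p of 0.337 for the probe and an exact permutation p of 0.1. Leaving out 1 specimen at a time moved it between -1.30 (without 6) and -0.70 (without 9).

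Ereg, epiregulin, an Egfr ligand whose gene lies on chromosome 5 with those of Areg and Btc, varied widely within both groups. Its probe read 1.53, 1.21 and 2.32 in Fos-floxed papillomas 2, 3 and 5, and 0.93, 1.47 and 1.91 in Fos-deficient papillomas 6, 8 and 9. The ranges overlapped for most of their length. The difference of -0.25 (SE 0.37, 95% interval -1.17 to 0.68, limma adjusted p of 0.796, exact permutation p of 0.6) took the other sign without Fos-floxed specimen 5 (0.068) and without Fos-deficient specimen 6 (0.0040).

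Btc, betacellulin, a ligand of Egfr and Erbb4, was equally mixed. It read 0.62, 0.33 and 0.85 in Fos-floxed papillomas 2, 3 and 5, and 0.35 and 0.98 in Fos-deficient papillomas 8 and 9. The difference was 0.07 (SE 0.26, 95% interval -0.61 to 0.74, limma adjusted p of 0.925) and fell to either side of 0 with the specimens used, from -0.068 without specimen 3 to 0.19 without specimen 5. The interval of Ereg still holds a difference of the size seen in Hbegf, and that of Btc reaches to -0.61, so neither shows that the groups were alike.

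Tgfa, transforming growth factor alpha, was read on 5 of 12 arrays and not tested. In Fos-floxed papillomas it stood at 1.01 on the Cy3 array of specimen 2, at 0.33 and 1.16 on the Cy5 and Cy3 arrays of specimen 3, and at -0.08 on the Cy5 array of specimen 5. The only Fos-deficient value was -0.89, on the Cy5 array of specimen 8. It was the lowest of the 5, and why other cells are empty is not stated in the labels.

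**Figure D4:**
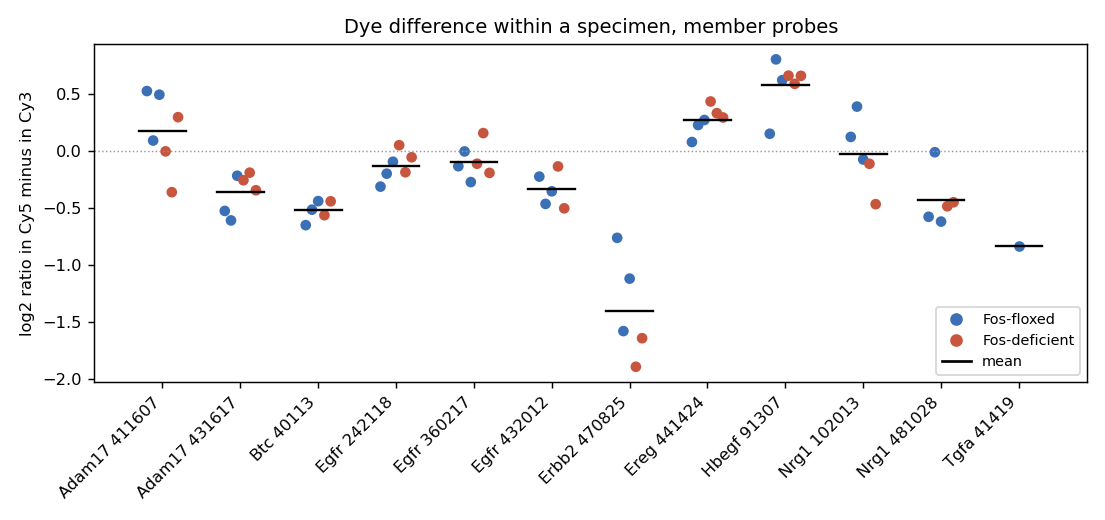
Log2 ratio with the papilloma in Cy5 minus that with the papilloma in Cy3, in 1 specimen (vertical axis, log2 units), for each member probe with a value, with Fos-floxed in blue, Fos-deficient in red and the mean as a black line. Erbb2 has the largest dye difference of the tested probes, at a mean of -1.40, followed by Hbegf at 0.58 and Btc at -0.52.

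The dyes set the scale of technical error for these values. Over all probes, the median absolute difference between both arrays of a specimen was between 0.27 and 0.35. The mean Cy5 minus Cy3 difference was 0.58 for Hbegf, -0.52 for Btc, -0.43 for Nrg1 probe 481028 and -0.35 for Adam17 probe 431617, and it was present in both groups. Averaging the dye-exchanged arrays cancels such a shift where both arrays hold a value. Where 1 is empty, as for Tgfa, it does not.

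The other genes of the route came from 6 lists with 71 genes, of which 59 were tested. In limma, 0 of the 59 had an adjusted p under 0.05. Below 0 were 36 and above 0 were 23, with a median difference of -0.12, while the median over all features was 0.03, with 44.9% below 0. An unadjusted p under 0.05 was found for 11 in the lower direction, or 18.6%, against 7.31% of all features, and for 2 in the higher, where all features had 4.55%. Those background shares apply to each list that follows. These lists, too, were chosen with earlier results known, and the percentages are descriptions.

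**Figure D5:**
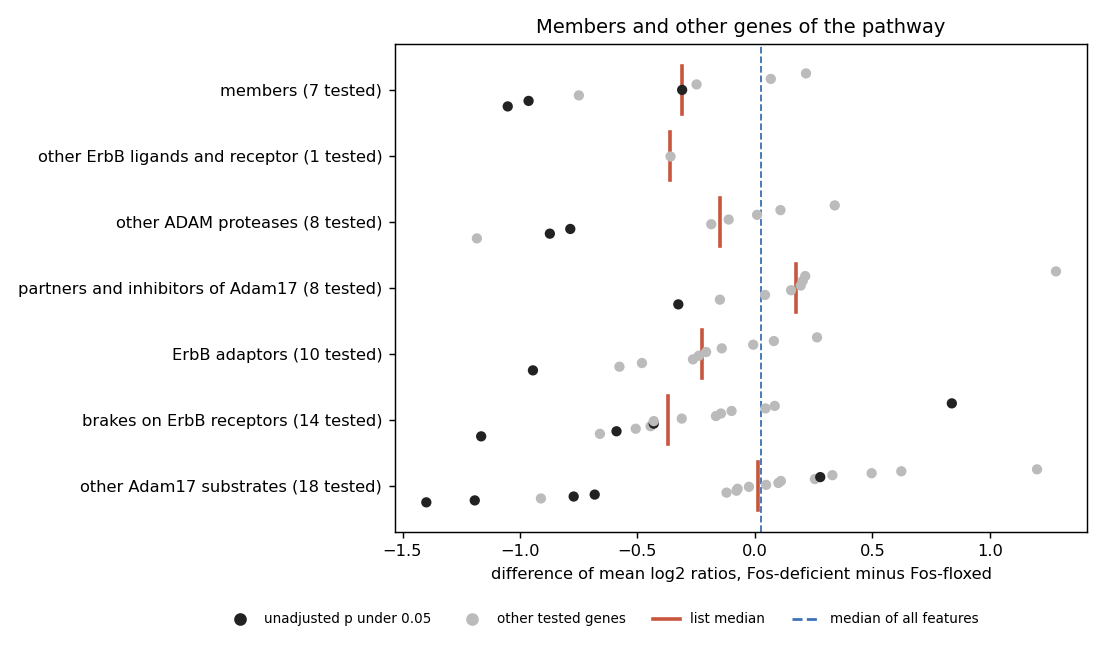
Difference of mean log2 ratios, Fos-deficient minus Fos-floxed (horizontal axis, log2 units), for each tested gene of the members and of 6 lists of the same route, 1 point a gene, black where the unadjusted p was under 0.05, with the list's median in red and the median of all features as a dashed blue line. Among the lists with more than 1 tested gene, the brakes on ErbB receptors have the lowest median, -0.37, and the partners and inhibitors of Adam17 the highest, 0.17.

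Among the remaining ErbB ligands and Erbb4, 1 gene of 6 was tested. Epgn, epigen, another Egfr ligand, read 5.59, 5.08 and 6.02 in Fos-floxed papillomas 2, 3 and 5, and 5.81, 4.54 and 5.25 in Fos-deficient papillomas 6, 8 and 9. Its transcript stood far above the reference in every papilloma. The groups overlapped, with a difference of -0.36 (SE 0.39, limma adjusted p of 0.721) that became 0.053 in Cy5 alone, -0.03 without specimen 8 and -0.67 without specimen 6.

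The 8 other ADAM proteases had a median of -0.15, with 5 below 0, and 2 with an unadjusted p under 0.05, both lower, against 7.31% of all features. Adam10, the nearest relative of Adam17 and a sheddase with overlapping substrates, read -0.24, -0.19 and -0.61 in Fos-floxed papillomas 2, 3 and 5, and -0.68, -1.10 and -1.62 in Fos-deficient papillomas 6, 8 and 9. The groups did not overlap, and all 3 Adam10 probes were below 0, at -0.55, -1.29 and -0.52 (mean -0.79, SE 0.26, limma adjusted p of 0.346). Specimens 8 and 9 were again the lowest. Adam12, a protease able to release Hbegf, differed by -0.87 (SE 0.13, limma adjusted p of 0.198) by the probe measured in all specimens and by 0.06 (SE 0.08) by its other probe. Where single arrays were taken in, both probes entered the mean, and Adam12 was at -0.39. Adam8, found mainly on leukocytes, differed by -1.18 (SE 0.61, limma adjusted p of 0.535) with overlapping groups and 2 Fos-floxed specimens.

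Partners and inhibitors of Adam17 had 2 of 8 below 0 and a median of 0.17. Timp3, the tissue inhibitor that blocks Adam17, read -1.95, -2.20 and -1.49 in Fos-floxed papillomas 2, 3 and 5, and -0.13, 0.10 and -1.77 in Fos-deficient papillomas 6, 8 and 9. Specimens 6 and 8 were high and specimen 9 lay among the Fos-floxed values, for a difference of 1.28 (SE 0.53, limma adjusted p of 0.432). Timp4, a related metalloprotease inhibitor, differed by -0.33 (SE 0.11, limma adjusted p of 0.392) with 2 Fos-deficient specimens, and Pacs2, a sorting protein that acts on the traffic of Adam17, by 0.19 (SE 0.13, limma adjusted p of 0.607), with 0.13 without specimen 8 and 0.31 without specimen 6.

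Of 10 ErbB adaptors and Ras proteins tested, 8 were below 0, with a median of -0.22, and 1 had an unadjusted p under 0.05 in the lower direction, near the 7.31% of all features. That was Shc1, the adaptor that docks on activated receptors. It read -0.21, -0.52 and -0.42 in Fos-floxed papillomas 2, 3 and 5, and -1.51, -0.62 and -1.86 in Fos-deficient papillomas 6, 8 and 9, without overlap. The difference was -0.94 (SE 0.32, limma adjusted p of 0.358). Stat3, a transcription factor activated below Egfr, differed by -0.58 (SE 0.24) and Nras, a Ras protein, by -0.26 (SE 0.13), with overlapping groups in both. Without specimen 3 Stat3 was at -0.36, and without specimen 6 Nras was at -0.17.

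The list of brakes on ErbB receptors, proteins that act on their ubiquitination, uptake or activity, had 11 of 14 below 0 and a median of -0.37. Brakes is the name of the list, and whether each gene restrains the receptors was not tested. An unadjusted p under 0.05 in limma was found for 3 lower (Cbl, Eps15 and Usp8) and 1 higher (Lrig3), against 7.31% and 4.55% of all features. Eps15, an endocytic adaptor that takes up Egfr, read 0.02, 0.02 and -0.15 in Fos-floxed papillomas 2, 3 and 5, and -0.80, -0.74 and -2.06 in Fos-deficient papillomas 6, 8 and 9. Specimen 9 was lowest, and the difference of -1.17 (SE 0.37, limma adjusted p of 0.324) was -0.74 without it. Cbl, the ubiquitin ligase of Egfr, differed by -0.43 (SE 0.11, limma adjusted p of 0.262) without overlap. Its other probe, with a value in only 2 specimens of each group, differed by -0.75 (SE 0.17). Lrig3, a membrane protein of the Lrig family, went the other way, with -1.38, -1.10 and -1.01 in the Fos-floxed and -0.43, 0.02 and -0.57 in the Fos-deficient papillomas. Its difference was 0.84 (SE 0.19, limma adjusted p of 0.231), from 1.37 and 0.31 by its single probes.

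Other proteins reported as Adam17 substrates were evenly split, with 9 below and 9 above 0 and a median of 0.01. Of these, 4 had an unadjusted p under 0.05 in the lower direction and 1 in the higher, against 7.31% and 4.55% of all features, and 1 of 18 is near the latter share. Met, the hepatocyte growth factor receptor, read -0.39, -0.43 and -0.98 in Fos-floxed papillomas 2, 3 and 5, and -1.67, -2.16 and -2.17 in Fos-deficient papillomas 6, 8 and 9, a difference of -1.40 (SE 0.22, limma adjusted p of 0.198). Cd44, the hyaluronan receptor, read 3.49, 3.30 and 3.26, then 2.52, 1.97 and 1.98, a difference of -1.19 (SE 0.17, limma adjusted p of 0.191). Ptprz1, a receptor-type phosphatase, read 4.65, 4.50 and 4.76, then 3.85, 3.89 and 3.86, a difference of -0.77 (SE 0.09, limma adjusted p of 0.191). In all 3 the groups stood clear of each other, with every Fos-deficient specimen low, specimen 6 included. These 3 were named for the smallest unadjusted p of the 18, a choice that favours groups without overlap. Of all features measured in every specimen, 9.09% did not overlap in that direction.

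Profiles most like those of the members were sought by the root mean square (RMS) difference of specimen values, each profile centred on its own mean. For the averaged Adam17 probes, over 6 specimens and 10651 genes, the nearest were Ehf (0.069), an epithelial Ets factor, Stoml2 (0.138), a mitochondrial membrane protein, and Top2a (0.144), a topoisomerase of dividing cells, while the median gene stood at 0.589. Ehf read 3.84, 3.68 and 3.33 in Fos-floxed papillomas 2, 3 and 5, and 3.70, 2.63 and 2.22 in Fos-deficient papillomas 6, 8 and 9, an order that its selection for likeness to Adam17 fixed. Egfr was nearest to Cyth3 (0.045), Ap4e1 (0.046) and Rraga (0.046), with a median gene at 0.266. Nrg1, over the 5 specimens in which probe 102013 was measured, was nearest to Castor2 (0.052), Klhdc4 (0.076) and Ctbp2 (0.082), with a median gene at 0.558. Likeness over so few specimens is a description and says nothing of shared control.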

How the data were processed

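The table deposited by the authors held log ratios for 12 spotted 2-colour arrays, taken here as log2. How they were normalized and background-corrected, the log base and why cells are empty is not given in the sources used here. Values reached from -6.74 to 7.34, a natural log cannot be told apart from base 2, and folds hold for base 2. All 66 pairs of arrays correlated positively (Pearson's r 0.705 to 0.963), so no sign was flipped. Papilloma over reference is the likely direction, as keratinocyte markers were high. The number of arrays, from 3 mice a group, limits the precision.

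Between 20811 and 26490 of 37632 probes had a value on an array. Symbols came from the platform annotation and were updated through RefSeq (16964 symbols, 12801 current, 4006 updated through a synonym). A specimen value needed both arrays. Probes of a gene measured in all specimens were averaged, otherwise the probe measured in most was used. Features with at least 2 specimens a group were tested with limma 3.58.1 (R 4.3.3, lmFit and eBayes, two-sided, Benjamini-Hochberg over all features), tested on simulated data beforehand. Exact permutation tests used all 20 assignments (scipy 1.17.1). SEs and intervals are limma's moderated ones.

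The members, the lists and the rule for named genes were chosen with earlier results of these data known. The rule names all members, from each list the up to 3 genes of smallest unadjusted p, and the 3 profiles nearest to Adam17, Egfr and Nrg1. Alternatives covered centring, quantile normalization, missing values, dye orientation, a random block, the variance model, array weights, 1 probe per gene and each specimen left out.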

Additional observations from a re-analysis of the deposited data

How the results depend on the processing

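Over 18 member results (genes and single probes), 240 of 253 values under an alternative kept direction and side of the threshold, and 13 took the other sign. Erbb2, Ereg, Hbegf and Btc have 1 probe each, so their values and sign changes are counted both as gene and as probe. Since no feature passed the threshold in the main fit, keeping its side says little. All 13 belong to members whose interval spans 0. Erbb2 was at -0.093 when single arrays were taken in and at -0.11 in Cy5 alone. Ereg was at 0.068 without Fos-floxed specimen 5 and 0.0040 without Fos-deficient specimen 6, and lay between -0.49 and 0.068 with 1 specimen left out. Btc was at -0.0043 with single arrays and at -0.068 without Fos-floxed specimen 3, in a range to 0.19 with 1 specimen left out. Adam17 probe 411607 was at 0.079 in Cy3 alone. Of 250 values for 16 other pathway genes, 1 took the other sign (Epgn, 0.053 in Cy5 alone). The cause of these turns was not tested. Averaged Adam17 was at -0.12 with 1 probe per gene, since that takes probe 411607. Nrg1 lay between -1.14 and -0.79 over 13 alternatives, Hbegf between -1.30 and -0.70 over 16 and averaged Egfr between -0.43 and -0.27 over 16. The Nrg1 values do not all come from the same probe. Its -0.79, in Cy3 alone, is that of probe 481028, and its -0.80 with single arrays is the mean of both probes. No Nrg1 fit left out Fos-deficient specimen 6 or 8, since too few values would remain. Leaving out specimen 9, which was not in the fit, changed nothing.

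The count of features with an adjusted p under 0.05 in limma was 0 (2238 at an unadjusted p under 0.05) and 0 for single probes. It was 1 for each in Cy3 alone. With all 12 arrays and the specimen as a random block it was 385 features (291 lower, 94 higher) and 426 probes (323 lower, 103 higher). That fit takes degrees of freedom from arrays although the genotype varies between mice, so its calls are not used. In it no member passed, the lowest adjusted p being 0.0798 for averaged Egfr and Nrg1 and 0.0697 for Nrg1 probe 481028, while Adam12 (0.0162), Lrig3 (0.0480) and Met (0.0351) did. Leaving out 1 specimen gave 0 calls at both levels in each case. No paired analysis was possible because the groups share no specimen numbers. Probes on all 12 arrays gave no value for Nrg1, Erbb2 and Btc. Signal over background was not analysed here.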
